A study of Homo sapiens with 11 samples.

Results

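The comparison set HEK293T cells given the compound AA147 at 10 µM against a pool of controls made of vehicle and the lowest doses of a second compound, AA132. The members were chosen by treatment: 3 libraries of AA147 10 µM, and 9 control libraries made up of 3 from vehicle (0.1% DMSO), 3 from AA132 at 0.1 µM and 3 from AA132 at 0.3 µM. These are 12 of the 33 libraries of the series. HEK293T is an established human embryonic kidney line that carries the SV40 large T antigen. All 12 libraries came from wild-type cells exposed for 6 h. The low AA132 doses joined the pool because earlier results of these data had shown little change there, so that AA147 could be read against 9 libraries instead of 3. The remaining conditions were higher doses of AA132 and the ER stressor thapsigargin (Tg) at 500 nM. Values are CPM, which are the deposited expected counts scaled per M counts of the library, and n counts numbered columns of the table. The labels list 1 sample per condition and leave it unsaid whether its 3 columns are different cultures, so the p-values measure only the spread between these columns, which may be technical.

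The unfolded protein response (UPR) is the set of programmes by which cells answer misfolded protein in the endoplasmic reticulum (ER), and it has 3 arms, led by the membrane proteins ATF6, IRE1 and PERK. ATF6 is cut in the Golgi and its free fragment raises ER chaperone genes, IRE1 splices the mRNA of XBP1 to give the factor XBP1s, and PERK slows translation and raises ATF4, a factor of the integrated stress response. The series title names selective activation of single arms. NRF2 is the factor of the antioxidant response, and the aryl hydrocarbon receptor (AHR) raises enzymes that metabolise aromatic compounds.

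The 12 libraries held 36.61 to 37.71 M counts each, and 21213 to 21609 genes had counts in a library. Counting error alone would give a chi-square per degree of freedom of about 1 between columns of the same treatment, and the 12 such pairs gave 4.5 to 59.4 (median 8.88). Vehicle library 1 stood apart on the first principal component (51.1, against -15.3 to 3.7 for the other 11 libraries, 18.9% of variance). AA147 library 1 stood apart on the second (40.9, against -6.9 to 5.0, 11.8% of variance). Its mitochondrially encoded genes had a median of -0.34 on the log2 scale relative to the control mean, against -0.14 to 0.21 in the 9 controls. Counts of called genes are therefore given with and without these libraries. Marker genes of the line summed to 2675 to 2809 CPM under AA147 and 2600 to 3124 CPM in controls. PAX2 among them was low, at 0.627 to 1.49 CPM. Of 16 markers of other cell types, 12 stayed below 1 CPM in every library, CD3E and INS were at 0 in all 12, and the list summed to 182 to 195 CPM under AA147 and 171 to 192 CPM in controls. The others were expressed: EPCAM (115 to 144 CPM), COL1A1 (31.8 to 50 CPM), CD68 (9.6 to 14.7 CPM) and CDH1 (3.54 to 5.47 CPM).

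Against the pool, 13 genes rose and 2 fell under AA147 in edgeR's quasi-likelihood test at a Benjamini-Hochberg adjusted p under 0.05. Of 17023 genes tested, 0.0881% were thus called, 0.0764% higher and 0.0117% lower. The called genes were small in number but recognisable: 6 encode proteins of ER folding or its control (HSPA5, HSP90B1, HYOU1, PDIA4, MANF, XBP1), 2 belong to the antioxidant response (HMOX1, GCLM), 2 are cytosolic HSP70 genes (HSPA1A, HSPA1B) and 1 is part of an amino acid transporter (SLC3A2). MAP3K14 and TMEM50B also rose, and CYP1B1 and EGR1 fell. Absolute log2 fold changes ran from 0.32 to 1.62, 11 of the 15 genes changed by less than 1.5-fold, and only HMOX1 and CYP1B1 changed 2-fold or more. In each of the 15 genes, the 3 AA147 libraries lay outside the range of all 9 controls. Of all genes tested, 0.881% had all 3 above all 9 controls and 0.54% had all 3 below. The 15 were chosen by p on these same libraries, so their separation largely follows from the choice. In all, 1004 genes (5.9%), the called ones included, had an unadjusted p under 0.05.

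**Figure D1:**
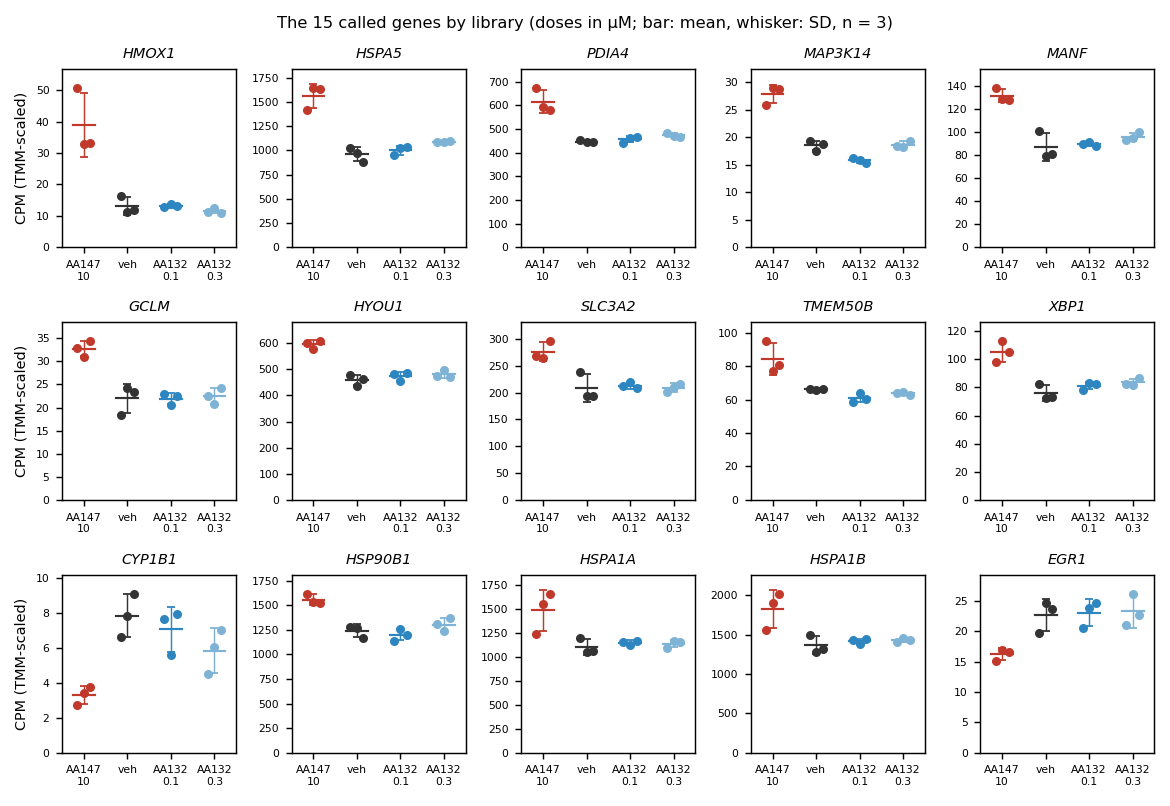
CPM of the 15 called genes (vertical axes, from 0) in each of the 12 libraries, with AA147 and the 3 control conditions (veh, vehicle) drawn apart, points for libraries, a bar for the mean and a whisker for the SD (n = 3). The 3 AA147 points lie beyond all 9 control points in every panel, which the choice of genes by p on these libraries favours. AA147 library 1 is well above the others for HMOX1 (50.6 CPM, against 32.9 and 33.1 CPM).

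The genes of the ATF6 arm gave the most calls. Of 12 listed genes, all 12 tested, 5 rose (HSPA5, PDIA4, MANF, HYOU1 and HSP90B1) and none fell. Over all genes tested, 0.0764% rose and 0.0117% fell. In 9 of the 12, all 3 AA147 libraries lay above all 9 controls, where 0.881% of all genes tested did so. The log2 difference was positive for 12 of 12, with a median of 0.31, against 50.7% positive and a median of 0.0021 over all genes. The median of the list in single libraries was 0.30 to 0.37 in AA147 and -0.14 to 0.057 in controls, with no overlap. The library medians of 6 of the 16 lists drawn did not overlap, those for XBP1s, UPR sensors, ER-associated degradation, disulfide isomerases and N-glycosylation included. Without vehicle library 1, 10 of the 12 rose, without AA147 library 1 or 2, 4 did, and without AA147 library 3, 3 did (HSPA5, PDIA4 and MANF). Of all genes tested, 46 of 16971 rose without vehicle library 1. Without AA147 library 1, 2 or 3, it was 11 of 17297, 9 of 17337 and 6 of 17335. DESeq2 called 9.

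HSPA5 encodes BiP, the HSP70 chaperone of the ER lumen and the usual marker of the UPR (chromosome 9, 125234853 to 125241382, GENCODE v44 on GRCh38). Its level was 1417, 1641 and 1632 CPM in the 3 AA147 libraries, and 881 CPM at the lowest, 1028 CPM at the median and 1097 CPM at the highest in controls. The lowest AA147 library thus stood well clear of the highest control. The rise was 1.53-fold (log2 fold change 0.62, SE 0.065, edgeR adjusted p = 0.000148), and an exact two-sided permutation over the 220 orderings of 3 against 9 gave p = 0.00455, the smallest it can give. HSP90B1, the ER member of the HSP90 family also called GRP94 (chromosome 12, 103930107 to 103953931), had 1620, 1534 and 1520 CPM against 1142 to 1367 CPM (median 1255). Its rise of 1.25-fold was the smallest among the called genes (log2 fold change 0.32, SE 0.054, edgeR adjusted p = 0.0179), and the call was lost when any 1 AA147 library was left out.

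HYOU1, a large HSP70-related chaperone that serves BiP as an exchange factor (chromosome 11, 119044188 to 119057227), had 602, 576 and 608 CPM against 437 to 497 CPM (median 476). The groups were apart by more than the spread within either (1.26-fold, edgeR adjusted p = 0.00334), though without AA147 library 3 the call was lost. PDIA4, a disulfide isomerase of the ER (chromosome 7, 149003062 to 149028662), had 671, 593 and 580.1 CPM against 441 to 482 CPM (median 461). The control range was narrow and the rise was 1.34-fold (edgeR adjusted p = 0.000687). MANF, a small secreted and ER-resident protein that binds BiP (chromosome 3, 51385291 to 51389397), had 138, 129 and 128 CPM against 79.2 to 101 CPM (median 91.1), a 1.45-fold rise (edgeR adjusted p = 0.00126). The PDIA4 and MANF calls were kept in all 12 fits that left out 1 library.

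Of the 7 other genes of the arm, HERPUD1 and CALR came nearest to the threshold. HERPUD1, a membrane protein of ER-associated degradation, had 37.4, 37.6 and 37.7 CPM against 24.6 to 31.2 CPM (log2 difference 0.42, edgeR adjusted p = 0.0525). CALR, the lectin chaperone calreticulin, had 1528, 1531 and 1522 CPM against 1110 to 1372 CPM (0.29, edgeR adjusted p = 0.0553). In both genes the AA147 libraries were nearly equal and above all controls. DNAJB11, a cochaperone of BiP, and PDIA6, a disulfide isomerase, also did not overlap with controls (log2 differences of 0.26 and 0.18, edgeR adjusted p = 0.246 and 0.398). SDF2L1, SEL1L and CRELD2 overlapped with controls, with log2 differences of 0.28, 0.27 and 0.13.

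The promoters of several of these genes hold the ER stress response element, through which ATF6 and XBP1 are known to act. The full element (ERSE) was searched as CCAAT and CCACG with 9 bases of any kind between them, and a shorter form (ERSE-II) as ATTGG and CCACG with 1 base between them, on both strands, in the 250 bases before the start site of each RefSeq promoter entry (GRCh38.p14). ERSE was found in 26 of 35116 entries (0.074%) and ERSE-II in 18 (0.0513%). Of the 15 called genes, 12 had a promoter entry (not CYP1B1, TMEM50B or HMOX1). HSPA5, HSP90B1 and XBP1 held ERSE and HYOU1 held ERSE-II. The stretches around the matches are shown for these 4 genes and for CALR and HERPUD1, the nearest to being called, so that the element can be compared between genes. They are written 5′ to 3′ on the strand of the gene, with the fixed letters of each match in capitals, and a match on the opposite strand appears as CGTGG and ATTGG, or as CGTGG and CCAAT for ERSE-II.
HSPA5 (chr9:125241381-125241419, minus strand): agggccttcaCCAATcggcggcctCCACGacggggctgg
XBP1 (chr22:28800593-28800631, minus strand): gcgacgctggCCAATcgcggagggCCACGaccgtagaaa
CALR (chr19:12938374-12938412, plus strand): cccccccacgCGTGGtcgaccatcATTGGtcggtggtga
HSP90B1 (chr12:103930206-103930349, plus strand): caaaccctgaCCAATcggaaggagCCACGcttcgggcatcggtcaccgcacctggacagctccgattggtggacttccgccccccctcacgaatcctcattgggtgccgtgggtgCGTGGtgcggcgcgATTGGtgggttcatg
HYOU1 (chr11:119057264-119057400, minus strand): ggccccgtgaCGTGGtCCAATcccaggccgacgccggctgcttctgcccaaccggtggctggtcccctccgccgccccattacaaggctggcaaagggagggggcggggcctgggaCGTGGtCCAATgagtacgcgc
HERPUD1 (chr16:56932015-56932045, plus strand): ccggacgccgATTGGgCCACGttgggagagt
The matches in HSPA5 and XBP1 lay 66 to 48 and 52 to 34 bases before the start. HSP90B1 held 1 match on each strand (194 to 176 and 89 to 71 bases before the start), and HYOU1 held 2 matches on the opposite strand (185 to 175 and 79 to 69 bases). The match in CALR lay 225 to 207 bases before the start and that in HERPUD1 117 to 107 bases.

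All genes with the element can be set beside the list. ERSE stood in the promoters of 25 genes, of which 18 were tested. Of these, 3 were called higher (0.0764% of all genes tested were), 16 had a positive log2 difference (50.7% of all genes) and the median was 0.17. In 6 of the 18 (HSPA5, HSP90B1, XBP1, CALR, PDIA6 and CANX, a membrane-bound lectin chaperone) all AA147 libraries lay above all controls, against 0.881% of all genes, and in 0 below. ERSE-II stood in 18 genes, of which 15 were tested, 1 was called, 9 were positive and the median was 0.03. Of the 12 genes of the ATF6 list, 8 held ERSE or ERSE-II, and of the 14 of the XBP1s list, with 13 promoters searched, 0 did. The lists were written from general knowledge with earlier results of these data known, so this contrast is a description and not separate support. HSPA5, HSP90B1, CALR, PDIA6 and CRELD2 are members of the ATF6 list, so their values are counted again among the ERSE genes. The same holds for HYOU1, HERPUD1 and SDF2L1 among the ERSE-II genes. A match is a description of these letters and not evidence of binding.

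**Figure D2:**
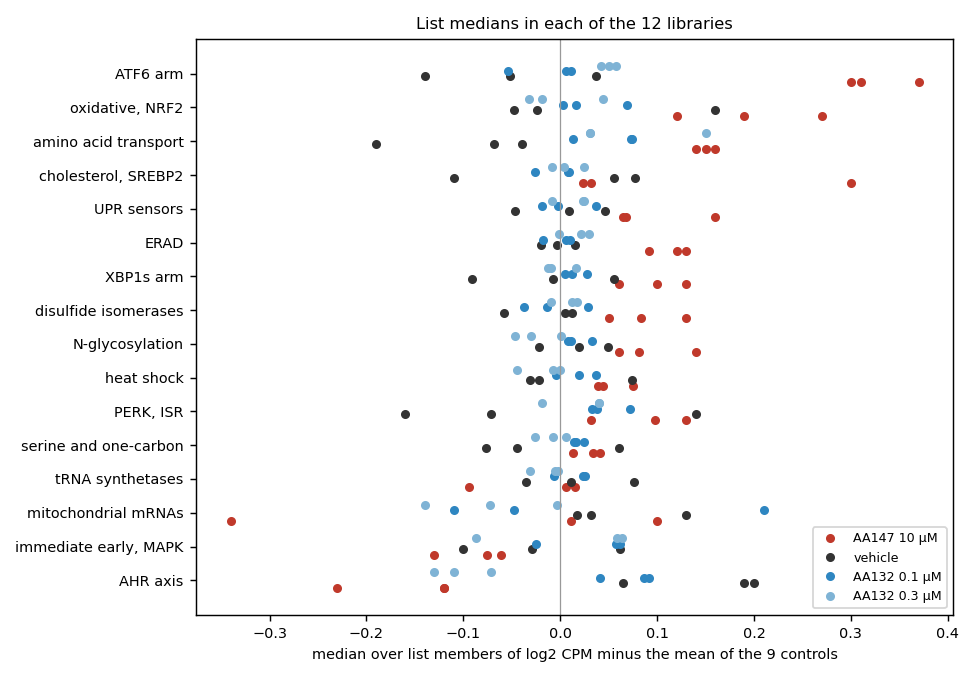
Median log2 difference from the control mean over each gene list, with 1 point for each of the 12 libraries on the horizontal axis. The ATF6 list shows the widest gap between the AA147 libraries (0.30 to 0.37) and the controls (-0.14 to 0.057) of the lists drawn, and 10 of the 16 lists overlap.

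XBP1 itself rose, as the only called gene among 10 sensors and regulators of the UPR (median 0.12, or 0.047 without AA147 library 2). It encodes the mRNA that IRE1 splices, and counts per gene do not separate its spliced form (chromosome 22, 28794555 to 28800597). Its level was 98.1, 113 and 105 CPM against 72.3 to 86.5 CPM (median 82.3), 1.31-fold higher with no overlap (log2 fold change 0.39, SE 0.063, edgeR adjusted p = 0.0117). The call was lost without AA147 library 2 or library 3. ATF6 had 106, 102 and 99.4 CPM against 87 to 101 CPM, with overlap (log2 difference 0.12, edgeR adjusted p = 0.835). Library medians of the 10 genes were 0.065 to 0.16 under AA147 and -0.047 to 0.046 in controls. Of all genes tested, 0.0764% were called higher.

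The genes usually assigned to XBP1s gave no call. Of 14 listed and tested, 0 were called by edgeR, DESeq2 or limma-voom, and 2 had an unadjusted p under 0.05 (5.9% of all genes did). With 1 of the 14, the AA147 libraries were above all controls (0.881% of all genes), and all 14 differences were positive (50.7% of all genes) with a median of 0.09. The list median in single libraries was 0.061 to 0.13 under AA147 and -0.091 to 0.055 in controls, with no overlap. With vehicle library 1 and AA147 library 1 both left out, the median of the log2 differences was 0.047. DNAJB9, a BiP cochaperone and the standard marker of this arm, had 11.9, 10.1 and 10.9 CPM against 9.36 to 10.8 CPM (log2 difference 0.15, edgeR adjusted p = 0.888). EDEM1, a lectin of ER-associated degradation, had 65, 70.6 and 66.3 CPM against 56.3 to 74.2 CPM (0.14). SEC61A1, the pore of the ER translocon, was the member with no overlap (211, 199 and 209.6 CPM against 167 to 196 CPM), with a log2 difference of 0.17 and an edgeR adjusted p of 0.61.

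Wider lists of ER protein handling gave few calls and small positive medians. Over all genes tested, 0.0764% were called higher, 0.881% lay above all controls, 5.9% had an unadjusted p under 0.05 and 50.7% were positive. Library medians under AA147 and in controls were 0.092 to 0.13 and -0.02 to 0.03 for ER-associated degradation. For disulfide isomerases they were 0.05 to 0.13 and -0.058 to 0.029, and for N-glycosylation 0.061 to 0.14 and -0.047 to 0.049. Among 18 genes of ER-associated degradation, 0 were called by edgeR or limma-voom. DESeq2 called 2 of them (35 of all 17023 genes were called higher), HERPUD1 and DERL2, the same 2 that did not overlap with controls. Of the 18, 7 had an unadjusted p under 0.05 in edgeR, 16 were positive and the median was 0.11. DERL2, a membrane component of the export channel, had 150.4, 127 and 129 CPM against 107 to 125 CPM (log2 difference 0.25, edgeR adjusted p = 0.265). DERL3, a related protein, had 19.6, 14.7 and 17.8 CPM against 11.6 to 16.1 CPM, with overlap (0.35). Without vehicle library 1, HERPUD1, SDF2L1, DERL2 and DERL3 rose (46 of all 16971 genes did). HERPUD1, SDF2L1 and SEL1L also stand in the ATF6 list, as do PDIA4 and PDIA6 of the next list. Among 18 disulfide isomerases and their oxidases PDIA4 alone rose, 16 were positive and the median was 0.08, or 0.047 without AA147 library 1. DESeq2, and edgeR without vehicle library 1, called PDIA6 as well. P4HB, the founding isomerase of the family, had 910.3, 898 and 919 CPM within a control range of 828 to 981 CPM (0.035). Among 16 genes of N-glycosylation and hexosamine synthesis 0 were called by edgeR, DESeq2 or limma-voom, 6 had an unadjusted p under 0.05, 14 were positive and the median was 0.081. Without vehicle library 1, RPN1 and OSTC rose, and against the pool less vehicle OSTC did (33 of all 16813 genes were called higher there). RPN1 and STT3A, subunits of the oligosaccharyltransferase, did not overlap with controls (0.21 and 0.13, edgeR adjusted p = 0.416 and 0.699).

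HMOX1, heme oxygenase and a widely used target of NRF2, showed the largest rise of the called genes (chromosome 22, 35380361 to 35394214). It had 50.6, 32.9 and 33.1 CPM under AA147, and 11 CPM at the lowest, 12.4 CPM at the median and 16.4 CPM at the highest in controls. The highest control was vehicle library 1, and the lowest AA147 library was still above it. The rise was 3.08-fold (log2 fold change 1.62, SE 0.12, edgeR adjusted p = 1.33e-06; exact two-sided permutation p = 0.00455), and the log2 fold change ran from 1.39 to 1.73 when 1 library was left out. GCLM, the modifier subunit of the enzyme that starts glutathione synthesis (chromosome 1, 93885199 to 93909456), had 32.9, 31 and 34.4 CPM against 18.4 to 24.3 CPM (median 22.4). It rose 1.48-fold (log2 fold change 0.57, SE 0.079, edgeR adjusted p = 0.00318), and the call was lost without AA147 library 3.

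Of 18 genes of the antioxidant list, these 2 rose (0.0764% of all genes did), 6 had all AA147 libraries above all controls (0.881% of all genes), 16 were positive (50.7% of all genes) and the median was 0.18. The library medians were 0.12 to 0.27 under AA147 and -0.048 to 0.16 in controls, so they overlapped. OSGIN1, a growth inhibitor induced by oxidative stress, had 2.42, 2.45 and 2.67 CPM against 1.11 to 1.89 CPM (log2 difference 0.76, edgeR adjusted p = 0.086). TXNRD1, thioredoxin reductase, had 304, 304 and 312 CPM against 212 to 275 CPM (0.30, edgeR adjusted p = 0.103). SRXN1, which repairs oxidised peroxiredoxins, had 13.4, 14 and 12.7 CPM against 8.23 to 11.4 CPM (0.39, edgeR adjusted p = 0.22). These were above all 9 controls without being called. NQO1 and GCLC, both classical NRF2 targets, overlapped with controls (0.21 and 0.15). Without vehicle library 1, 6 of the 18 rose: HMOX1, GCLM, TXNRD1, SRXN1, SLC7A11 and OSGIN1. Of all genes tested, 46 of 16971 rose in that fit. DESeq2 called 5 (35 of all 17023 genes were called higher). Without AA147 library 3 edgeR called HMOX1 alone (6 of all 17335 genes were called higher).

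Among amino acid transporters only SLC3A2 rose. It encodes the heavy chain shared by several exchangers, including those formed with SLC7A5 and SLC7A11 (chromosome 11, 62856004 to 62888880). Its level was 268, 265 and 296 CPM against 193 to 238 CPM (median 211), 1.31-fold higher with no overlap (log2 fold change 0.39, SE 0.062, edgeR adjusted p = 0.0112). The call was lost without AA147 library 3. Of 13 listed genes, 12 were tested and 1 was called (0.0764% of all genes were called higher). In 3 the AA147 libraries were above all controls (0.881% of all genes), and all 12 were positive (50.7% of all genes). The median was 0.14, but 0.22 against vehicle alone and 0.088 against the pool less vehicle. Without vehicle library 1, SLC7A11, which also stands in the antioxidant list, rose as well (46 of all 16971 genes did). SLC7A11, the cystine exchanger, had 13.8, 9.39 and 10.7 CPM against 2.75 to 8.26 CPM (0.80, edgeR adjusted p = 0.322). Some of its counts were fractional, which the table does not explain.

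SLC7A5, the light chain that imports large neutral amino acids (chromosome 16, 87830023 to 87869507), was not called against the pool although no library overlapped. It had 85.7, 82.3 and 85.2 CPM under AA147. The controls were not alike: vehicle had 59.3, 61.9 and 60.1 CPM, AA132 0.1 µM had 77, 70.7 and 76.5 CPM, and AA132 0.3 µM had 72.8, 77.1 and 66.5 CPM. The 6 low-dose libraries thus all lay between vehicle and AA147. Against the pool the log2 difference was 0.29 (SE 0.083, edgeR adjusted p = 0.545; exact two-sided permutation p = 0.0136), and against vehicle alone, in a fit of the same 12 libraries, it was 0.48 (edgeR adjusted p = 0.0165). The low doses themselves differed from vehicle by 0.31 and 0.25, and neither passed adjustment (edgeR adjusted p = 0.998 and 0.997).

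The PERK arm and integrated stress response gave 0 edgeR calls among 18 genes tested, 3 of them with an unadjusted p under 0.05, where 5.9% of all genes had one. DESeq2 called 2, DDIT3 and GDF15 (35 of all 17023 genes were called higher), and limma-voom called 0. Of the list, 14 were positive (50.7% of all genes), 1 had its AA147 libraries above all controls (0.881% of all genes), and the median was 0.06 (0.092 without AA147 library 3, 0.16 against vehicle alone, 0.038 against the pool less vehicle and 0.11 against the pool less AA132 0.1 µM). ATF4 had 496, 455 and 495 CPM within the control range of 433 to 529 CPM (log2 difference 0.027, edgeR adjusted p = 0.989). DDIT3, the factor CHOP, had 18.4, 10.7 and 8.99 CPM against 6.54 to 9.04 CPM, so that library 1 was far above the other two AA147 libraries and library 3 overlapped with the controls (0.74, edgeR adjusted p = 0.103). GDF15, a secreted stress cytokine, was near the detection limit, with 0.771, 0.431 and 0.27 CPM against 0 to 0.167 CPM (edgeR adjusted p = 0.131), where 1 count is 0.027 CPM. Without vehicle library 1, DDIT3 and GDF15 rose (46 of all 16971 genes did). CHAC1, TRIB3 and ASNS, all targets of ATF4, overlapped with controls (0.25, 0.18 and 0.074). Of 13 genes of serine, one-carbon and asparagine metabolism (median 0.046) and 20 cytosolic tRNA synthetases (5 positive, median -0.035), 0 were called by edgeR, DESeq2 or limma-voom, with 2 and 0 at an unadjusted p under 0.05. The first median was -0.0019 against the pool less vehicle, and the second was 0.0051 without AA147 library 1.

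HSPA1A and HSPA1B, the stress-inducible cytosolic HSP70 genes, rose together. They are near-identical neighbours on chromosome 6 (31815543 to 31817946 and 31827738 to 31830254), so how reads were divided between them is uncertain. HSPA1A had 1244, 1559 and 1664 CPM against 1058 to 1200 CPM (median 1156), a 1.32-fold rise (log2 fold change 0.40, SE 0.067, edgeR adjusted p = 0.0179). HSPA1B had 1563, 1902 and 2023 CPM against 1286 to 1502 CPM (median 1428), a 1.3-fold rise (edgeR adjusted p = 0.0179). AA147 library 1 was nearest the controls in both genes, the reverse of its place for HMOX1. Both calls were lost without AA147 library 2 or library 3. These were the only calls in a heat shock list of 16, in which 11 were positive and the median was 0.067, or 0.036 without AA147 library 3 and 0.044 against vehicle alone. Of all genes tested, 0.0764% were called higher and 50.7% were positive. In the list, 6 genes had an unadjusted p under 0.05 in edgeR (5.9% of all genes). The AA147 libraries lay above all controls in 3, DNAJB1 among them (0.881% of all genes). HSPA8, the constitutive HSP70, had 3676, 3405 and 3243 CPM against 2741 to 3317 CPM (0.20, edgeR adjusted p = 0.61), and DNAJB1, an HSP40 cochaperone, had a log2 difference of 0.11.

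MAP3K14 and TMEM50B rose and belong to no list. MAP3K14, the kinase NIK of non-canonical NF-kB signalling (chromosome 17, 45263119 to 45317029), had 25.9, 28.9 and 28.7 CPM against 15.4 to 19.4 CPM (median 18.2). It rose 1.58-fold (log2 fold change 0.66, SE 0.08, edgeR adjusted p = 0.000687), and every fit that left out 1 library kept the call. It overlaps MAP3K14-AS1 on the opposite strand, as HSP90B1 overlaps UQCC6. TMEM50B, a transmembrane protein (chromosome 21, 33432485 to 33479974), had 95.1, 77.2 and 80.7 CPM against 58.9 to 66.6 CPM (median 64), 1.32-fold higher (edgeR adjusted p = 0.0117). Its call was lost without AA147 library 1 or library 3, and it overlaps IFNGR2 on the opposite strand. MAP3K14 and TMEM50B had fractional counts, and the use of strand in counting is not given in the sources used here, so reads of the overlapping partners cannot be told apart.

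CYP1B1, a cytochrome P450 induced through AHR, showed the largest fall (chromosome 2, 38066973 to 38109902). It had 2.74, 3.42 and 3.78 CPM under AA147, against 4.48 CPM at the lowest, 7.03 CPM at the median and 9.12 CPM at the highest in controls. Its level was 0.478 times that of controls (log2 fold change -1.07, SE 0.18, edgeR adjusted p = 0.0179). The call was lost when any 1 AA147 library was left out, with log2 fold changes of -1.17 to -0.94 over all fits that left out 1 library, and also with limma-voom. CYP1B1 overlaps RMDN2 and CYP1B1-AS1 on the opposite strand.

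In the list of the AHR axis, 10 of 12 genes were tested, CYP1B1 alone was called lower, 3 were positive and the median was -0.14, or -0.24 against vehicle alone. Of all genes tested, 0.0117% were called lower and 50.7% were positive. DESeq2 also called TIPARP lower (8 of all 17023 genes were called lower). TIPARP, an ADP-ribosyltransferase induced by AHR, had 25, 24.6 and 22.5 CPM against 27.2 to 45.5 CPM (log2 difference -0.59, edgeR adjusted p = 0.328). All its AA147 libraries lay below all controls, as in 0.54% of all genes tested, and without vehicle library 1 it fell (17 of all 16971 genes did). CYP1A1, another P450 of the axis, had 0.505, 0.78 and 0.729 CPM against 0.718 to 2.75 CPM, with overlap (-1.23, edgeR adjusted p = 0.61). AHRR, the repressor of the receptor, had 3.08, 3.18 and 2.83 CPM against 2.57 to 4.96 CPM (-0.44, edgeR adjusted p = 0.746). The median of the list in single libraries was -0.23 to -0.12 under AA147, -0.13 to -0.072 in AA132 0.3 µM, 0.041 to 0.092 in AA132 0.1 µM and 0.065 to 0.20 in vehicle.

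EGR1, an immediate early transcription factor downstream of MAP kinases, fell (chromosome 5, 138465479 to 138469303). It had 15.1, 16.9 and 16.6 CPM against 19.7 to 26.2 CPM (median 23.7), 0.705 times the control level (log2 fold change -0.50, SE 0.091, edgeR adjusted p = 0.0323). This was the least stable call, kept in 3 of the 12 fits that left out 1 library: it was lost without any 1 of the AA147 libraries, vehicle library 2 or 3, and library 2 or 3 of either AA132 dose. Of 17 immediate early and MAP kinase feedback genes, EGR1 alone was called, 5 were positive and the median was -0.04, which turned to 0.057 against vehicle alone. The shares over all genes tested were 0.0117% called lower and 50.7% positive. IER3 had 16.2, 24.1 and 29.7 CPM against 28.8 to 41.2 CPM (-0.48, edgeR adjusted p = 0.523), a spread in which AA147 library 3 reached the controls.

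The differences of the sterol genes lay mainly in AA147 library 1. Of 14 genes of the sterol list 0 were called by edgeR or limma-voom, and DESeq2 called 1 (35 of all 17023 genes were called higher). An unadjusted p under 0.05 was found for 6 (5.9% of all genes), 2 had their AA147 libraries above all controls (0.881% of all genes) and 11 were positive (50.7% of all genes). The median was 0.14, but 0.033 without that library and 0.091 without vehicle library 1. IDI1, an isomerase of the mevalonate pathway, had 296 CPM in library 1 and 183 and 182 CPM in libraries 2 and 3, against 171 to 201 CPM in controls (edgeR adjusted p = 0.78). INSIG1, the sterol-sensing anchor of SREBP cleavage, had 119, 77.5 and 72.7 CPM against 62.7 to 81.7 CPM (edgeR adjusted p = 0.739). SQLE, squalene epoxidase, was above all controls in each library (261, 202 and 209 CPM against 173 to 199 CPM, log2 difference 0.26, edgeR adjusted p = 0.402). Over the 150 genes with all 3 AA147 libraries above all 9 controls, library 1 was the highest of the 3 in 80, library 2 in 26 and library 3 in 44. The part of this library in the sterol values beyond the leave-out was not tested.

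The levels within the pool are given by condition. The low doses had been chosen for little change from vehicle in these data, so few calls between the control conditions follow from the choice and are a description. AA132 at 0.1 µM gave 0 edgeR calls against vehicle, with 496 genes (2.91%) at an unadjusted p under 0.05. DESeq2 called 1 gene there and limma-voom 0. AA132 at 0.3 µM gave 2 calls (0.0117%), CYP1A1 lower and CCDC180 higher, with 531 genes (3.12%) at an unadjusted p under 0.05. CYP1A1 had 2.75, 2.24 and 2.12 CPM in vehicle, 1.36, 1.88 and 1.51 CPM at 0.1 µM and 0.756, 0.718 and 0.875 CPM at 0.3 µM. Its log2 fold change at 0.3 µM was -1.59 (SE 0.23, edgeR adjusted p = 0.0279), so this control condition was already near the AA147 level. Against vehicle alone AA147 gave -1.81 for CYP1A1 (edgeR adjusted p = 0.00481) and -0.77 for TIPARP (edgeR adjusted p = 0.0119), and both calls were absent against the pool. TIPARP had 28.2, 27.2 and 28.5 CPM at 0.3 µM beside 33, 45.5 and 44.2 CPM in vehicle. CCDC180, chosen here after its values were seen, had 0.756, 0.984 and 0.848 CPM at 0.3 µM and 0.0795 to 0.167 CPM in vehicle (2.73, SE 0.38, edgeR adjusted p = 0.0279). The CYP1A1 call was kept in 6 of 21 alternatives and the CCDC180 call in 5 of 20, and of the fits that left out 1 library only the one without AA132 0.1 µM library 2 kept either.

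**Figure D3:**
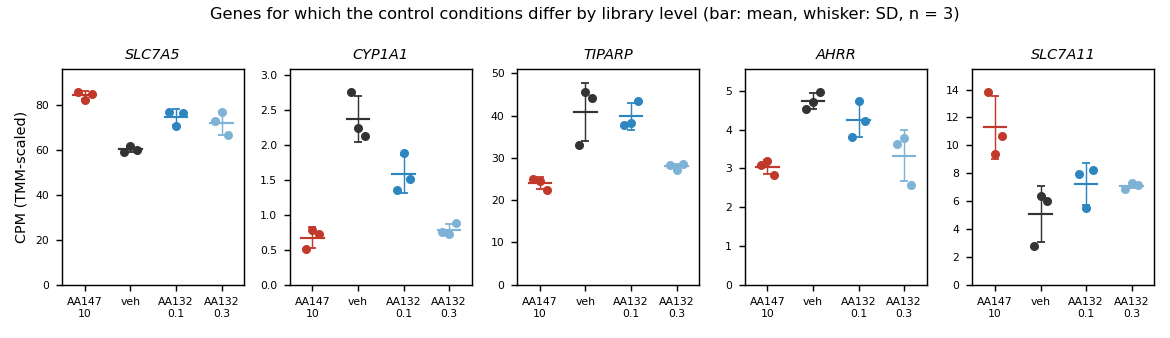
CPM of SLC7A5, CYP1A1, TIPARP, AHRR and SLC7A11 (vertical axes, from 0) in the 3 libraries of AA147 10 µM, vehicle and AA132 0.1 and 0.3 µM, with a bar for the mean and a whisker for the SD (n = 3). In SLC7A5 the low doses (66.5 to 77.1 CPM) lie between vehicle and AA147, and in CYP1A1 the AA132 0.3 µM libraries (0.718 to 0.875 CPM) lie near those of AA147 (0.505 to 0.78 CPM).

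Among the 15 genes called against the pool, 3 had an unadjusted p under 0.05 for a low AA132 dose against vehicle, although the call itself asks for controls that lie close together. These were MAP3K14 at 0.1 µM (log2 difference -0.22) and HSPA5 and CYP1B1 at 0.3 µM (0.18 and -0.43). Of all genes tested, 2.91% had such a p at 0.1 µM and 3.12% at 0.3 µM. HSPA5 had 1090, 1090 and 1097 CPM at 0.3 µM beside 1028, 977 and 881 CPM in vehicle. All 15 were also called when the vehicle libraries were left out, which left the 6 low-dose libraries as controls. That fit called 41 of all 16813 genes. With vehicle alone as control in a fit of all 12 libraries, 8 of the 15 were called (12 of all 17023 genes were). Both fits reuse libraries on which the 15 were chosen, so the calls kept are a description and not separate support.

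The gain from the pool depended on which controls it held. AA147 against the 3 vehicle libraries in a fit of only those 6 gave 0 edgeR calls, with 358 genes at an unadjusted p under 0.05, and HMOX1 and HSPA5 both had an edgeR adjusted p of 0.136 there despite log2 fold changes of 1.57 and 0.70. With 12 libraries in the fit the vehicle comparison gave 12 calls. The full pool gave 15, the pool less AA132 0.1 µM gave 4, the pool less AA132 0.3 µM gave 12, and the pool less vehicle gave 41. Leaving out vehicle library 1 alone gave 63 calls, 46 higher and 17 lower, with all 15 among them. Leaving out AA147 library 1, 2 or 3 gave 11, 9 and 7 calls. HMOX1, HSPA5, PDIA4 and MAP3K14 were called in 26 of 27 alternatives, all but the fit of 6 libraries. The alternatives reuse the libraries on which these genes were chosen. On simulated counts for 3 against 9 libraries, 200 genes picked at random over all levels were altered at each size of change. The counts were drawn independently around 1 mean per gene, without outlying libraries or differences between control conditions. The test found 31.5% of them at 1.3-fold, 69% at 1.5-fold and 84% at 2-fold, and 3.08%, 11.5% and 6.67% of its calls were false. Changes near 1.3-fold, the size of many values above, were thus often missed in these simulated counts. Recovery in the real libraries, or for highly expressed genes alone, was not tested.

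**Figure D4:**
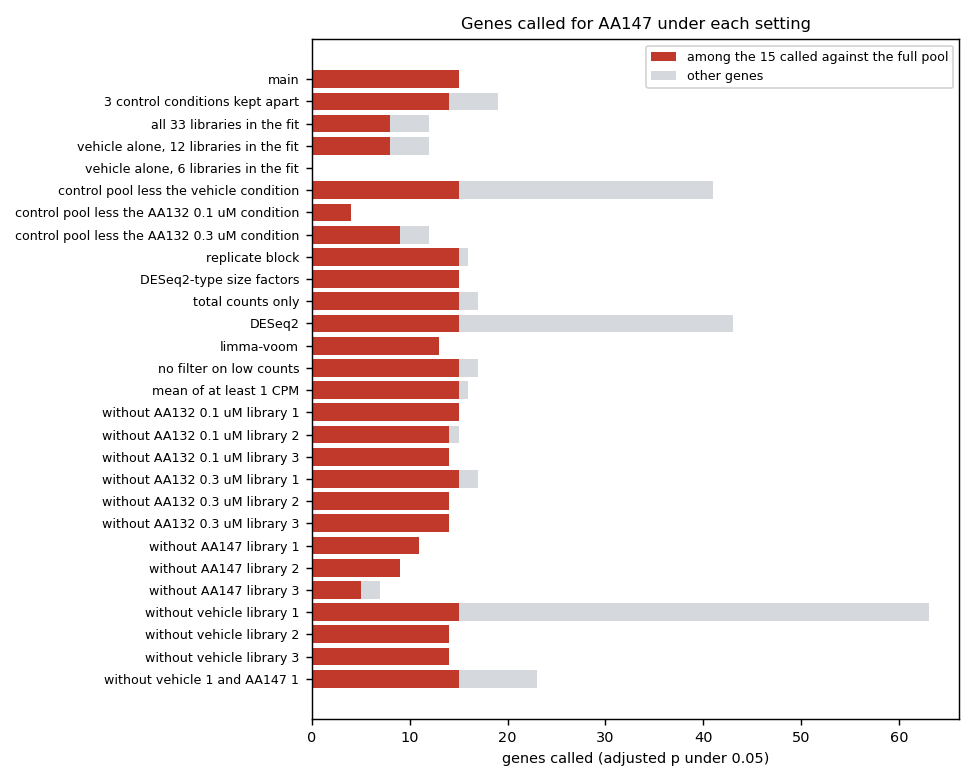
Number of genes called (horizontal axis) under each alternative (bars), divided into those among the 15 and others. The counts run from 0 in the fit of 6 libraries to 63 without vehicle library 1, and the full pool gives 15.

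The levels of these genes in the stronger conditions are given side by side, on a scale set over all 33 libraries and with no test, since the conditions share the fit and differ in agent or dose. HSPA5 had 1020 ± 73 CPM in the 9 controls (SD, n = 9), 1565 ± 125 CPM under AA147 10 µM, 2454 ± 526 CPM under AA132 10 µM and 10927 ± 272 CPM under Tg (SD, n = 3 each). PDIA4 had means of 459, 616, 861 and 3197 CPM in the same order, and MANF, HYOU1, XBP1 and HSP90B1 had the same order of means. HMOX1 was ordered otherwise, with 12.6 ± 1.74 CPM in controls, 38.9 ± 10.2 CPM under AA147, 105 ± 29.7 CPM under AA132 10 µM and 25.3 ± 3.5 CPM under Tg. The AA147 range for HMOX1 (32.9 to 50.8 CPM) lay above that of Tg (22.2 to 29.1 CPM). HSPA1A was at 1491 ± 217 CPM under AA147 and 253 ± 12.5 CPM under Tg, on either side of the control mean of 1133 CPM. MAP3K14 was at 27.9 CPM under AA147, 29.9 CPM under AA132 10 µM and 14.4 CPM under Tg, against 17.7 CPM in controls. CYP1B1 was at 3.32 CPM under AA147 and 2.68 CPM under AA132 10 µM, but at 12.3 CPM under Tg, against 6.94 CPM in controls. EGR1 was at 16.2 CPM under AA147 and 13.6 CPM under AA132 10 µM, and its Tg mean of 23.5 CPM was near that of controls (23 CPM).

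**Figure D5:**
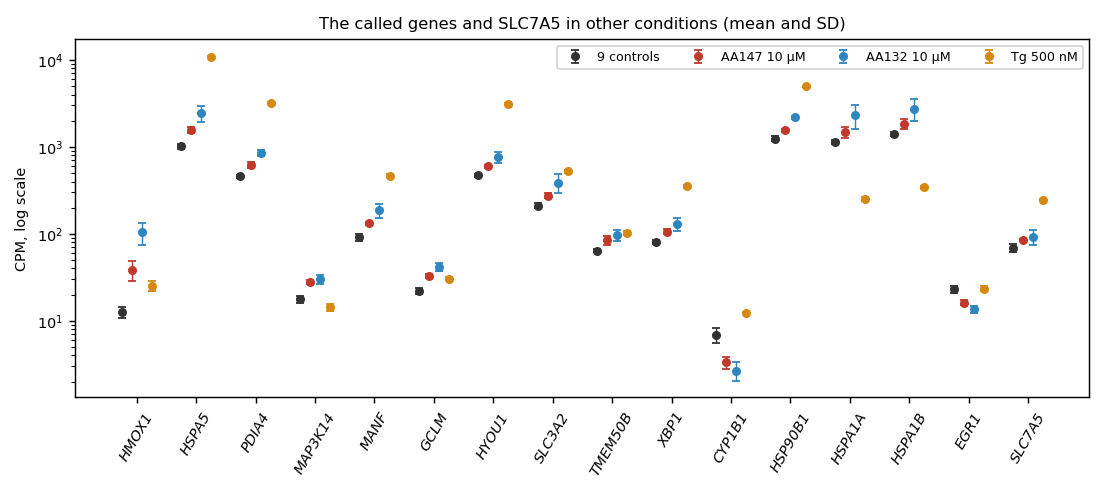
Mean CPM with SD of the 15 called genes and SLC7A5 (log vertical axis) in the 9 controls, AA147 10 µM, AA132 10 µM and Tg 500 nM (n = 3 for each treatment). The ER chaperone genes have their highest mean under Tg (HSPA5, 10927 CPM), while HMOX1, HSPA1A, HSPA1B, GCLM and MAP3K14 have theirs under AA132 10 µM (HMOX1, 105 CPM).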

How the data were processed

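RNA of HEK293T cells was sequenced after 6 h of treatment. The authors deposited 1 table of expected counts (estimated read totals per gene, not scaled between libraries), which the file headers call total reads. Reads were mapped to GRCh38 patch p7 per the submitters' processing notes. The aligner, counter, annotation and use of strand are not given in the sources used here. The floor of 0.009, which fills 43.5% of cells, was set to 0, and 3.22% of cells hold fractions that are not explained. The 98 entries that share 45 names were summed, leaving 38021 genes. The 28 entries whose names had turned into dates stayed in totals, unnamed. All 33 columns were matched to a condition by name.

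The expected counts were rounded, filtered with filterByExpr (17023 genes left) and scaled with TMM factors. AA147 was tested against the 9 controls as 1 group with edgeR 4.0.16 and its quasi-likelihood F-test (limma 3.58.1, R 4.3.3), with Benjamini-Hochberg adjustment over all genes tested and a threshold of 0.05. The standard error is the absolute log2 fold change divided by the square root of F. The 3 control conditions were compared in a fit of the same 12 libraries. The common dispersion was 0.0108, a coefficient of variation of 10.4%. For genes with many counts, precision is limited by this spread more than by depth. For genes with few counts, depth limits it too. Counts without molecular identifiers are not independent molecules.

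The members and the gene lists were chosen with earlier results of these data known. Some genes stand in more than 1 list and are counted in each. Named genes are HSPA5, SLC7A5 and HMOX1, list members, and called genes with a mean of at least 1 CPM and no overlap of libraries (up to 12 with the largest change and 6 with the smallest p in each direction). Other fits used DESeq2 1.42.0, limma-voom, other size factors, filters and control pools, a replicate block, and each library left out. On simulated counts without outlying libraries or differences between control conditions, the edgeR test made 0 calls where nothing was changed. Gene positions are from GENCODE v44 on GRCh38 and promoter sequences from RefSeq (GRCh38.p14). The values of 1 sterol gene are not reported here.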

Additional observations from a re-analysis of the deposited data

Results flagged for a closer look

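The median of the XBP1s list in vehicle library 1 was -0.091 on the log2 scale relative to the control mean, far below the other 8 controls for their range. Over the 9 control libraries its gap to the nearest value exceeded Dixon's critical value. It was the only such value among the 34 sets of control values looked at, and chance alone gives about 1 in 20.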

How the results depend on the processing

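Leaving out 1 library at a time moved the count of called genes from 15 to between 7 and 63, the count called higher from 13 to between 6 and 46, and the count called lower from 2 to between 0 and 17. The lowest total came without AA147 library 3 and the highest without vehicle library 1. Leaving out vehicle library 1 and AA147 library 1 together, an alternative chosen after the data were seen, gave 23 calls, 20 of them higher. The pool less vehicle gave 41 (33 higher, 8 lower), the pool less AA132 0.1 µM gave 4 (4 higher, 0 lower), and vehicle alone in a fit of 6 libraries gave 0 in either direction. DESeq2 gave 43 (35 higher, 8 lower), limma-voom gave 0 lower, the fit of all 33 libraries gave 1 lower, and a minimum absolute log2 fold change of 0.5 gave 7. The cause of these shifts was not tested.

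For AA132 0.1 µM against vehicle, DESeq2 gave 1 call, no filter gave 20, and leaving out 1 library gave 0 to 1. For AA132 0.3 µM, 0 calls came from the fit of 33 libraries, the fit of 6 libraries and limma-voom, 15 without the filter, 1 at a mean of 1 CPM or more, and 0 to 2 with 1 library left out. HMOX1 (1.57) and HSPA5 (0.70) were not called in the fit of 6 libraries, and SLC7A5 (0.48) was called against vehicle alone with 12 libraries in the fit.

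No pairing of the libraries by column number was seen over all genes: deviations of same-numbered libraries correlated at -0.05 to 0.09 over 18 pairs. A pairing confined to few genes could be missed, and the labels do not say how the columns were made. With the number as a replicate block, 16 genes were called, 14 higher and 2 lower, all of the 15 among them, and AA132 0.3 µM against vehicle gave 0.

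Depth limits genes under 1 CPM, where 1 count is 0.027 CPM. With 3 AA147 libraries, all calls but those of HMOX1, HSPA5, PDIA4, MAP3K14 and MANF were lost in at least 1 fit that left out a library.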

Other observations

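CCDC180 fell into separate levels among libraries of the same treatment. It was at 0.675 to 0.808 CPM in the 3 AA147 libraries and at 0.754 to 0.987 CPM in AA132 0.3 µM, but at 0.0797 to 0.168 CPM in vehicle and 0.0803 to 0.163 CPM in AA132 0.1 µM, on the scale of all 33 libraries. Within AA132 3 µM the 3 libraries had 0.162, 0.982 and 1.26 CPM, and within Tg they had 0.108, 0.161 and 0.864 CPM. Its difference in the pool therefore stands beside gaps of the same size between libraries of 1 condition.

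SLC7A5 had 59.6 to 61.7 CPM in vehicle, 70.7 to 77 CPM at AA132 0.1 µM, 66.4 to 77.4 CPM at 0.3 µM, 70.7 to 76.4 CPM at 1 µM, 70.1 to 84.7 CPM at 3 µM, 85.7 to 93.3 CPM at 6 µM, 72.3 to 105 CPM at 10 µM, 102 to 111 CPM at 15 µM and 115 to 120 CPM at 30 µM. The AA147 libraries (82.3 to 85.9 CPM) lay between those of AA132 1 µM and 30 µM. CYP1A1 had 2.12 to 2.76 CPM in vehicle, 1.36 to 1.88 CPM at AA132 0.1 µM, 0.721 to 0.874 CPM at 0.3 µM, 0.597 to 1.42 CPM at 1 µM, 0.531 to 1.08 CPM at 3 µM, 0.342 to 0.562 CPM at 6 µM, 0.243 to 0.81 CPM at 10 µM, 0.346 to 0.618 CPM at 15 µM and 0.645 to 0.788 CPM at 30 µM. TIPARP had 33.2 to 45.3 CPM in vehicle, 37.8 to 43.5 CPM at 0.1 µM, 27.3 to 28.5 CPM at 0.3 µM, 19.6 to 33.5 CPM at 1 µM, 18.5 to 30.3 CPM at 3 µM, 18.6 to 22 CPM at 6 µM, 20.7 to 22.2 CPM at 10 µM, 21.5 to 22.7 CPM at 15 µM and 22.7 to 26.4 CPM at 30 µM. These values are given without a test.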
